A study of Homo sapiens with 8 samples.

Results

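The genes described here carry TMEM symbols, a naming series that stands for transmembrane protein. They were taken as all probe sets whose annotation gives exactly 1 gene symbol that begins with TMEM and a digit, less 1 gene that is not analysed here. The rule gave 426 of 54675 probe sets on the array, and these represent 226 of 19775 genes with a symbol of their own. Of the 226, 206 were listed by RefSeq as protein-coding, 15 as long noncoding RNAs, which carry the symbol of a neighbouring gene or an old name, and 3 as pseudogenes, and 2 were not in the RefSeq table used. All arrays hold RNA of H1 cells, a human embryonic stem cell line cultured over irradiated mouse embryonic fibroblasts, which forward and side scatter had divided into small cells (4 arrays) and large cells (4 arrays). The labels give no difference between the fractions in genotype, treatment or time, so the sort gate, which reads cell size and granularity, is what sets them apart. Each array holds 1 sort, the submitters describe the sorts as independent biological repeats, and scatter gates alone do not fix which states or cell types a fraction holds.

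TMEM symbols mark a shared topology and not a shared ancestry or pathway: such proteins cross a lipid membrane at least once, and many were named before anything was known of their work. Members since given a role sit in the endoplasmic reticulum, where new membrane proteins are inserted and folded and where lipids are made, in the Golgi apparatus and lysosomes, in mitochondria, in the nuclear envelope, at the base of the cilium or at the cell surface. Several move lipids across a membrane: flippases carry them to the cytosolic leaflet, and scramblases let them pass both ways.

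Levels are log2 intensities after quantile normalization between arrays, and differences are small minus large cells on that log2 scale. They are relative to the RNA put on each array, so fewer copies per cell cannot be told apart from fewer cells that express a gene. A gene is represented by its tested probe set with the highest mean, and is called at a limma adjusted p under 0.05 over all 14726 genes tested. Of the pluripotency marker list 10 genes were tested and 0 were called. Their differences ran from -0.19 to 0.08, with a median of -0.10 and 9 of the 10 below 0. The listed markers POU5F1 and TDGF1 were not among the genes tested. Of 9 tested fibroblast, 8 neural and 6 mesoderm and endoderm markers, 0 were called, but some differed between the fractions by more than most TMEM genes. All 8 neural markers lay above 0, with a median of 0.22. PAX6 was at 1.77 ± 0.52 (adjusted p = 0.106), with large array 1 at 5.63, inside the small range of 5.13 to 5.87. STMN2 was at 1.15 ± 0.48 and DCX at 0.57 ± 0.26. Of the 6 mesoderm and endoderm markers 4 lay above and 2 below 0, with a median of 0.30. AFP was at 0.75 ± 0.38, GATA6 at 0.68 ± 0.32 and HAND1, the lowest, at -0.38 ± 0.32. The fibroblast marker VIM, which other cells also express, had 10.44, 10.97, 10.37 and 10.50 in small cells, against 9.55, 10.32, 8.41 and 9.53 in large cells (1.12 ± 0.30, adjusted p = 0.0723), while the fibroblast list as a whole had a median of -0.05. The part of these markers in the TMEM results was not tested. The summed linear level of the fibroblast list ran from 2402 to 4022 in small cells and from 1725 to 4078 in large cells, and that of the neural list from 1632 to 3297 in small cells and from 1714 to 3148 in large cells. As a sign of RNA quality, the GAPDH and ACTB controls had a mean log2 excess of 3 prime over 5 prime signal of 2.36 ± 0.30 in small and 2.12 ± 0.53 in large cells (SD, n = 4 each; exact two-sided permutation p = 0.4, smallest possible 0.0286), with large array 1 highest of all at 2.91. Between arrays, the 75th percentile of intensity as deposited varied between 41.9 and 106 units, and precision is limited by the number of arrays.

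Of the 226 genes, 178 had a probe set bright enough to test and 48 did not. Of the tested TMEM genes, 9 were lower in small cells (5.06%), where the share among all genes tested was 1.69%, and 0 were higher, where the share among all genes was 0.299%. At an unadjusted p under 0.05 there were 32 lower (18%) and 7 higher (3.93%), where all genes had 8% lower and 8.51% higher. The 9 were TMEM30A, TMEM50A, TMEM41B, TMEM33, TMEM39A, TMEM245, TMEM131, TMEM165 and TMEM106B, all protein-coding. In RefSeq on GRCh38.p14 they lie at chr6:75252924-75284792 (TMEM30A), chr1:25338334-25362361 (TMEM50A), chr11:9280654-9314593 (TMEM41B), chr4:41935137-41960803 (TMEM33), chr3:119428949-119463615 (TMEM39A), chr9:109015135-109119947 (TMEM245), chr2:97756336-97995948 (TMEM131), chr4:55395957-55453397 (TMEM165) and chr7:12211294-12243367 (TMEM106B). At the level of probe sets, 11 of 291 tested were lower (3.78%) and 0 higher, where all probe sets had 1.3% lower and 0.198% higher. The median difference over the 178 genes was -0.10, where that over all genes was 0.05. Of the 178, 116 lay below 0 (65.2%), where 6483 of all 14726 genes did. All 4 small arrays lay below all 4 large ones in 24 TMEM genes (13.5%, where all genes had 5.07%) and above them in 3 (1.69%, where all genes had 4.94%). These shares are descriptions, since no test set the TMEM genes against other genes.

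**Figure D1:**
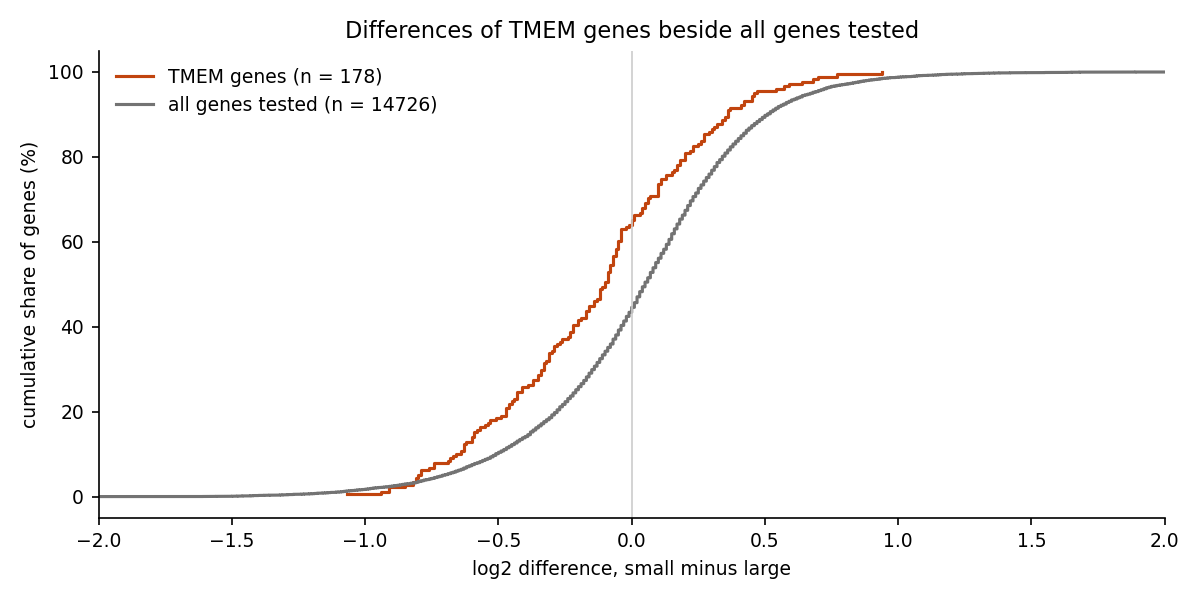
Cumulative share of genes (%, vertical axis) by log2 difference between small and large cells (horizontal axis), for 178 TMEM genes and all 14726 genes tested. The TMEM curve lies left of the other over the middle of the range, with medians of -0.10 and 0.05, and the TMEM genes end at -1.07 and 0.94.

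The calls went with brightness. With all tested genes split into 3 groups of equal size by mean level, the brightest held 53 TMEM genes, of which 8 were lower in small cells (15.1%), where 3.85% of all bright genes were. In the middle group 1 of 74 was lower (1.35%, where all genes had 1.18%), and in the dim group 0 of 51 were (where all genes had 0.0407%). The medians of the TMEM genes in the bright, middle and dim groups were -0.20, -0.12 and -0.01, beside 0.04, 0.06 and 0.06 for all genes of each group.

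**Figure D2:**
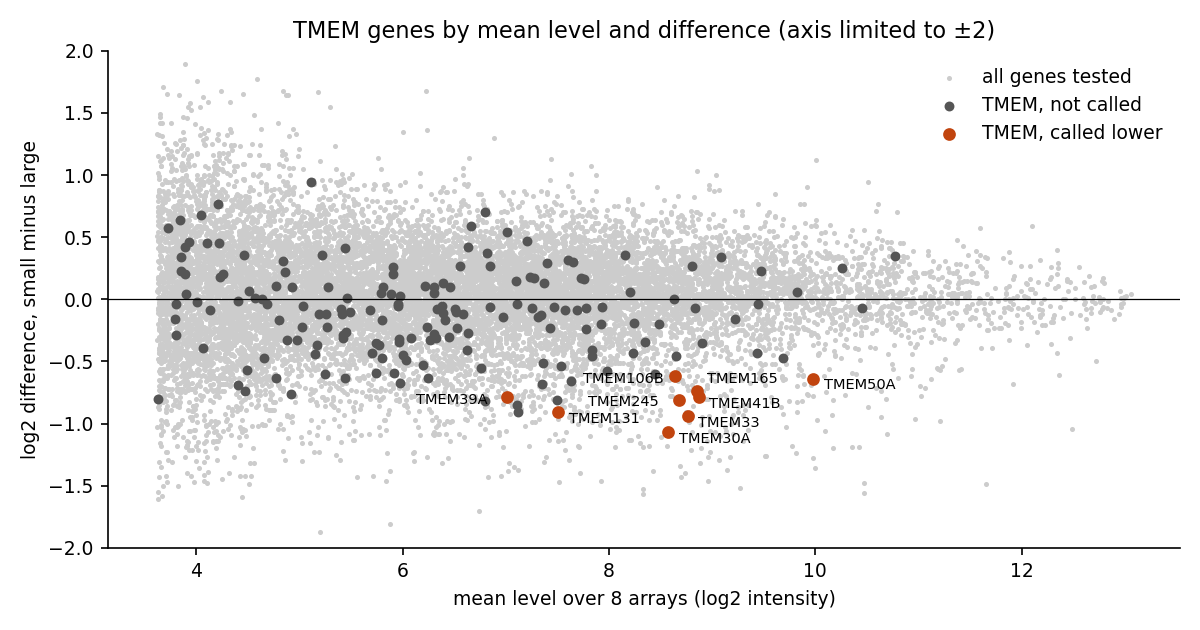
Mean level over 8 arrays (log2 intensity, horizontal axis) and log2 difference between small and large cells (vertical axis) for all genes tested (light grey), TMEM genes not called (dark grey) and the 9 TMEM genes lower in small cells (orange-red). The 9 called genes start at a mean level of 7.01 and lie between -0.62 and -1.07.

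TMEM30A had the largest difference of the tested TMEM genes, each taken at its brightest tested probe set. It encodes the accessory subunit that most P4-ATPase flippases need to leave the endoplasmic reticulum and to work. Its levels were 7.97, 7.87, 8.16 and 8.15 in small cells, against 8.88, 9.11, 9.29 and 9.16 in large cells. Every small array lay below every large one, and TMEM30A was lower by 2.1-fold, a difference of -1.07 ± 0.15 (SE, 4 arrays a group, limma adjusted p = 0.00651). All 3 of its tested probe sets were separated in this way, with differences of -1.07, -0.83 and -0.57, and the first 2 were called. It was also the one called gene that kept its call whichever array was left out, with differences from -1.15 to -1.01. Its paralog TMEM30B, which encodes another such subunit, had levels of 5.86, 5.88, 5.91 and 6.07 in small cells, against 6.61, 6.30, 6.77 and 6.55 in large cells. These did not overlap either, but the difference of -0.63 ± 0.18 did not pass (adjusted p = 0.103). Of the P4-ATPase genes 12 were tested and 1 was lower, where all genes had 1.69%. It was ATP11A, a flippase of the plasma membrane (-0.92 ± 0.18, adjusted p = 0.0214), with 0 higher and a list median of -0.27.

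TMEM41B, a phospholipid scramblase of the endoplasmic reticulum that autophagosome formation needs, was 1.73-fold lower in small cells. It stood at 8.24, 8.50, 8.78 and 8.39 in small cells, against 9.17, 9.14, 9.51 and 9.24 in large cells. The groups did not overlap, and the difference was -0.79 ± 0.16 (adjusted p = 0.0236). The second probe set, at -0.87 ± 0.32, overlapped between groups because large array 1 sat among the small arrays. TMEM41A, its paralog, had a difference of -0.55 ± 0.20 and was not called (adjusted p = 0.178), though its groups did not overlap. Of 10 tested genes for autophagosome lipid transfer and initiation, 0 were called in either direction, with 6 below and 4 above 0 and a median of -0.26. ATG9A, itself a scramblase, was at -0.81 ± 0.24 (adjusted p = 0.106), and RB1CC1, a scaffold of the initiating kinase complex, at -0.56 ± 0.18 (adjusted p = 0.127). On the other side, WIPI1 was at 0.47 ± 0.24 (adjusted p = 0.34), and WDR45, which like WIPI1 binds phosphoinositides, was at 0.44 ± 0.18 (adjusted p = 0.244) with every small array above every large one. Over all 11 tested TMEM genes of lipid scrambling, flipping and lipid enzymes, 2 were lower, 0 higher, 5 were lower without overlap, and the median was -0.45. Among all genes tested 1.69% were lower and 5.07% were lower without overlap, and this list was not tested against other genes. The list also holds TMEM97, the sigma-2 receptor, which takes part in cholesterol handling: it had 9.05, 9.01, 9.39 and 9.42 in small cells, against 9.58, 9.62, 9.69 and 9.68 in large cells, a difference of -0.43 ± 0.14 that did not pass (adjusted p = 0.134). The lysoplasmalogenase gene TMEM86B had the highest value of this list at 0.64 ± 0.65 (adjusted p = 0.685), and its small and large values overlapped widely.

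TMEM33 and TMEM131 were the called members of a list meant for insertion, glycosylation and degradation at the endoplasmic reticulum. The roles given here for these 2 genes are not among those in the list's name. TMEM33 encodes a membrane protein of that organelle that binds reticulons, which shape its tubules. Its levels were 8.28, 8.20, 7.99 and 8.70 in small cells, against 9.10, 8.90, 9.58 and 9.37 in large cells, so small array 4 came closest to the large arrays. The gene was 1.92-fold lower (-0.94 ± 0.19, adjusted p = 0.0236), and all 5 of its probe sets lay below 0, from -0.94 to -0.33. TMEM131 encodes a protein that takes part in the secretion of collagen. It stood at 7.09, 6.93, 6.88 and 7.33 in small cells, against 8.25, 8.20, 7.57 and 7.83 in large cells, where large arrays 3 and 4 were nearer to the small cells than large arrays 1 and 2. It was 1.87-fold lower (-0.91 ± 0.19, adjusted p = 0.0293), on its single tested probe set. Its paralog TMEM131L was at -0.41 ± 0.28 and was not called (adjusted p = 0.516). Of the 8 tested genes of this list 2 were lower, where all genes had 1.69%, and 0 were higher, with a median of -0.24. This list was not tested against other genes, and its count does not describe insertion, glycosylation or degradation as such. TMEM258, a subunit of oligosaccharyltransferase, lay on the other side at 0.35 ± 0.15 and was not called (adjusted p = 0.271). Of 6 tested genes of the endoplasmic reticulum membrane complex, which inserts membrane proteins, 0 were called, with 3 below and 3 above 0.

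TMEM165 and TMEM106B were the called members among genes of the Golgi, endosome and lysosome. TMEM165, a Golgi ion transporter needed for normal glycosylation, was at 8.30, 8.41, 8.65 and 8.56 in small cells, against 8.88, 9.23, 9.35 and 9.42 in large cells. The groups did not overlap, and it was 1.67-fold lower (-0.74 ± 0.16, adjusted p = 0.0304). TMEM106B, a lysosomal membrane protein linked to frontotemporal dementia, was at 8.47, 8.19, 8.38 and 8.27 in small cells, against 9.19, 8.74, 8.94 and 8.93 in large cells. It was 1.54-fold lower (-0.62 ± 0.15, adjusted p = 0.0474), the call nearest to the threshold, and it lost the call with any 1 array left out (adjusted p from 0.0552 to 0.135). Its paralogs lay on the other side of 0. TMEM106A had 4.59, 4.94, 4.30 and 4.54 in small cells, against 3.86, 3.69, 3.76 and 3.98 in large cells, with no overlap, but at that low level the difference of 0.77 ± 0.34 did not pass (adjusted p = 0.273). The other tested probe set of TMEM106A was at 0.08 ± 0.45 and overlapped between groups. TMEM106C was at 0.18 ± 0.23 (adjusted p = 0.752). Whether the 3 paralogs differ from each other in response was not tested. TMEM87A, a Golgi protein, was not called on its brighter probe set (-0.58 ± 0.17, adjusted p = 0.105), while its other probe set was lower by 2.18-fold (-1.12 ± 0.22, adjusted p = 0.0266 over probe sets), with 6.42, 6.76, 6.34 and 7.31 in small cells and 7.78, 7.83, 7.69 and 8.03 in large cells. Over the 16 tested genes of this list 2 were lower, where all genes had 1.69%, 0 were higher and the median was -0.19. Of 4 tested genes that assemble the proton pump acidifying these compartments, 1 was lower, where all genes had 1.69%. It was ATP6AP2, an accessory subunit (-0.65 ± 0.13, adjusted p = 0.0236).

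The other 3 called genes were in none of the lists by role. TMEM50A, which encodes a small membrane protein, was at 9.56, 9.64, 9.59 and 9.85 in small cells, against 10.28, 10.24, 10.30 and 10.37 in large cells. The large arrays had an SD of 0.05, and the gene was 1.56-fold lower (-0.64 ± 0.12, adjusted p = 0.0176), with its second probe set also called at -0.75 ± 0.17. TMEM50B, its paralog, was at -0.23 ± 0.21 and was not called (adjusted p = 0.63). TMEM39A, a protein of the endoplasmic reticulum, was at 6.62, 6.76, 6.63 and 6.46 in small cells, against 7.45, 7.25, 7.50 and 7.44 in large cells. It was 1.73-fold lower (-0.79 ± 0.16, adjusted p = 0.0262), and the 4 probe sets lay between -0.79 and -0.35. Its paralog TMEM39B was at -0.37 ± 0.25 (adjusted p = 0.517). TMEM245 was at 8.18, 7.99, 8.27 and 8.68 in small cells, against 9.19, 8.85, 9.13 and 9.16 in large cells, and was 1.75-fold lower (-0.81 ± 0.17, adjusted p = 0.0283). All 4 of its probe sets lay below 0, from -0.81 to -0.51. Its span on chromosome 9 (GRCh38.p14, 109015135 to 109119947) contains the microRNA gene MIR32, at 109046229 to 109046298.

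**Figure D3:**
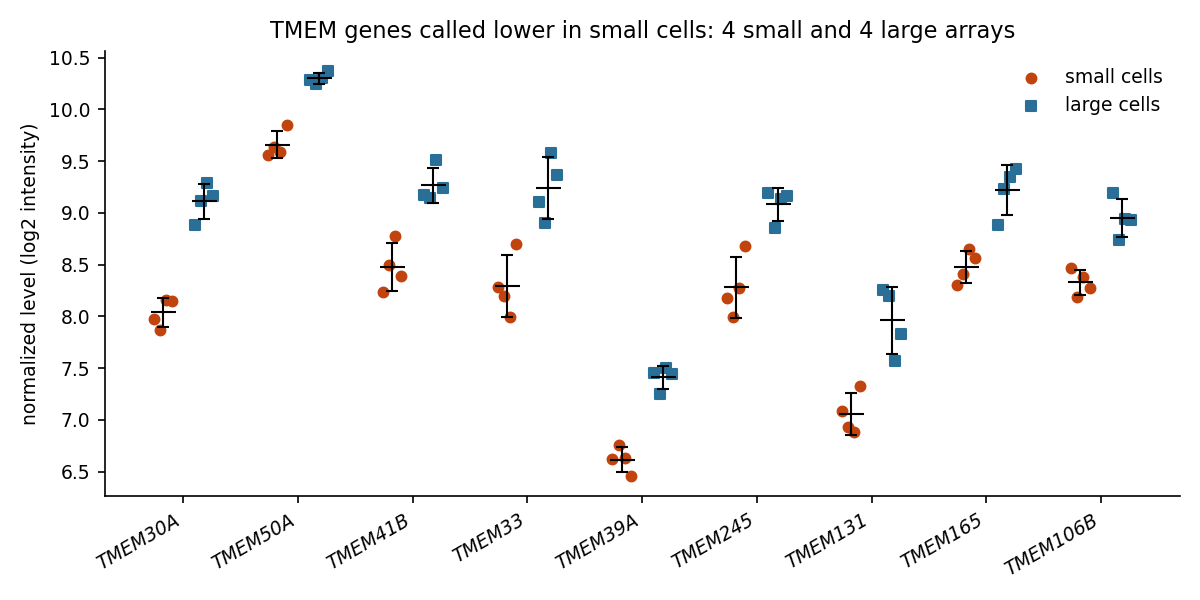
Normalized levels (log2 intensity, vertical axis) of the 9 TMEM genes lower in small cells, with 4 small arrays (orange-red circles) left of 4 large arrays (blue squares) for each gene and bars for the mean ± SD. In each of the 9 genes all small arrays lie below all large arrays, with the widest step in TMEM30A (-1.07) and the narrowest in TMEM106B (-0.62).

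Across probe sets the called genes were uniform in sign: their 26 tested probe sets all lay below 0, and 10 of the 26 were called. Over all TMEM genes with several tested probe sets, 28 of 77 had probe sets of both signs. For 4 of the 9 called genes, TMEM50A, TMEM39A, TMEM245 and TMEM165, the probe set ended in _s_at, a kind that can bind several transcripts. When _x_at and _s_at probe sets were left out, 5 genes were called, TMEM39A was at -0.61 (adjusted p = 0.362) on another probe set, and the other 3 had none left to test. The count also rested on single arrays: it was 1 without small array 1, small array 2 or large array 4, 2 without large array 3, and 5 without small array 4, with all 9 genes below 0 in each of these fits, and the share of all genes lower was then 0.408%, 0.537%, 0.461%, 0.536% and 1.65%. With the RNA quality measure as a covariate 5 of the 9 were called (TMEM30A, TMEM50A, TMEM245, TMEM131 and TMEM106B), where 0.917% of all genes were lower. The limma test called 0 TMEM genes, and 0 of all genes, on unnormalized values (2 TMEM genes lower at an unadjusted p under 0.05), after centring on medians (16 TMEM genes lower) and with a constant prior variance (32 lower).

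The start regions of the called genes are shown because these genes differ in the same direction and the sequences let their promoters be compared. RefSeq start regions, 250 bases before to 50 after the start on GRCh38.p14, were found for 8 of the 9 called genes and for 146 of the 178 tested, and those of the 3 called genes with the smallest p among them are printed 5′ to 3′, with GC boxes (GGGCGG) and ETS cores (TTCCGG) on either strand in capitals. The first is at chr1:25338084-25338383 on the plus strand, the second at chr11:9314544-9314843 on the minus strand and the third at chr4:41935179-41935478 on the plus strand. For TMEM33 the promoter table takes a start inside the gene span given above, so its region lies within that span.
TMEM50A: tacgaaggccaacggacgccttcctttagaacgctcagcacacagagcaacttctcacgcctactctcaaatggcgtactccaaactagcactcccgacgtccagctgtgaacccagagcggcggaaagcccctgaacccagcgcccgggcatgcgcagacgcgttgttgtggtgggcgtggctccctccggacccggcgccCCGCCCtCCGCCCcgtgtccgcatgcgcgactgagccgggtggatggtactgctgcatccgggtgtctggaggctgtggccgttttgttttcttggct
TMEM41B: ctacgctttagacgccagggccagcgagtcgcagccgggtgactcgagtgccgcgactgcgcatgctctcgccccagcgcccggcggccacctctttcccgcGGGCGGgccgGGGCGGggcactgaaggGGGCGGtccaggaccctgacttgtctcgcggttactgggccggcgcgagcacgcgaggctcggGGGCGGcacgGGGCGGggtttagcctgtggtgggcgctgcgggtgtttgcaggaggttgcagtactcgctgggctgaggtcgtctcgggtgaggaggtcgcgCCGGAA
TMEM33: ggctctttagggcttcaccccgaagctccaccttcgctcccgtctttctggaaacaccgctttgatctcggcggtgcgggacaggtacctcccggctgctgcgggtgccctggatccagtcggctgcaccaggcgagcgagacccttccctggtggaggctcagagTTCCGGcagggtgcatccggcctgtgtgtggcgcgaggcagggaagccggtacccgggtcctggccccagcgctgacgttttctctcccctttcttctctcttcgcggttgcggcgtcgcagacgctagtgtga
The TMEM50A region holds 2 GC boxes, that of TMEM41B holds 5 and 1 ETS core, and that of TMEM33 holds 1 ETS core. A GC box was in 5 of the 8 called regions, in 69.2% of the 146 tested TMEM regions and in 44.6% of 27305 start regions of the same length. The ETS core was in 3 of the 8, in 24.7% of the tested TMEM regions and in 17.6% of all. A CCAAT box (CCAAT) was in 1 of the 8, that of TMEM165, in 31.5% of tested TMEM regions and in 35.7% of all, and the cAMP response element (TGACGTCA) in 1 of the 8, that of TMEM39A, with 2.74% and 1.98%. The E-box CACGTG was in 0 of the 8, with 6.85% of tested TMEM regions and 7.43% of all, and the TATA box (TATAAA) in 0 of the 8, with 3.42% and 12%. The endoplasmic reticulum stress element, which contains a CCAAT box, was in 0 of the 8, with 0.685% and 0.0806%. All motifs were searched on both strands, and a match is a run of letters, not a measured binding site. The called regions had a median GC content of 64.7%, those of tested TMEM genes not called 65.5% and all start regions 58.3%.

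Nuclear envelope members were all below 0 without a call. TMEM209, which interacts with the nuclear pore, was at 6.86, 7.08, 7.10 and 7.31 in small cells, against 7.49, 7.72, 8.37 and 8.02 in large cells. The groups did not overlap, and the difference of -0.81 ± 0.20 missed the threshold (adjusted p = 0.06). It passed without large array 1 (adjusted p = 0.0244), where 2.43% of all genes were lower, against 1.69% with all arrays. TMEM43, a protein of the inner nuclear membrane known for inherited heart disease, was at -0.85 ± 0.25 (adjusted p = 0.106), and its groups overlapped, with small array 4 and large array 3 both at 7.14. All 5 tested members lay below 0, with a median of -0.53, and 0 were called. The list shares TMEM120A with the lipid list and TMEM38A with the ion channel list.

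Ion channel and calcium handling members gave 0 calls among 12 tested, with 10 below and 2 above 0 and a median of -0.33. TMEM109, a channel protein of the endoplasmic reticulum and nuclear membranes, had 5.58, 5.87, 5.81 and 5.89 in small cells, against 6.19, 6.16, 6.38 and 6.38 in large cells. It did not overlap but did not pass (-0.49 ± 0.18, adjusted p = 0.204). TMEM203, which regulates calcium stores of the endoplasmic reticulum, lay higher in every small array, at 8.52, 8.10, 8.18 and 8.55, against 7.90, 7.90, 8.07 and 8.04 in large cells, and did not pass either (0.36 ± 0.16, adjusted p = 0.273). Among the osmosensitive channels of the TMEM63 family, TMEM63A, TMEM63B and TMEM63C had differences of -0.12 ± 0.32, -0.60 ± 0.27 and -0.80 ± 0.57. None passed (adjusted p = 0.892, 0.294 and 0.528), and their groups overlapped. Of the 4 tested probe sets of TMEM63A only 1, the brightest, lay below 0.

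Mitochondrial members had the highest median of the lists, 0.20, with 11 of 16 tested genes at or above 0 and 0 called. TMEM160, a protein of the inner mitochondrial membrane, was at 7.52, 7.17, 6.84 and 7.08 in small cells, against 7.09, 6.62, 6.15 and 5.94 in large cells. Large array 1 lay within the small range and the other large arrays below it, and the difference of 0.70 ± 0.25 did not pass (adjusted p = 0.178). Without large array 1 the difference of TMEM160 was 0.93 and called (adjusted p = 0.0445), where 196 of all genes were higher, against 44 with all arrays. That array had the highest 3 prime to 5 prime difference, and the part of RNA quality was not tested. TMEM11, which acts in the shaping of cristae, was at 0.29 ± 0.19 (adjusted p = 0.49), and the ATP synthase assembly factor TMEM70 had 8.63 in both groups (0.00 ± 0.15, adjusted p = 0.997). The complex I assembly factor TMEM126B was at -0.16 ± 0.17, its paralog TMEM126A at 0.23 ± 0.15, and of 10 other complex I assembly genes 0 were called, 9 of them above 0, with a median of 0.26.

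Ciliary transition zone members, which form the gate at the base of the cilium, gave 0 calls among 9 tested, with a median of -0.09. TMEM67, meckelin, altered in Meckel and Joubert syndromes, had 4.78, 4.49, 4.82 and 4.05 in small cells, against 5.52, 4.99, 5.07 and 5.59 in large cells, separated but not called (-0.76 ± 0.28, adjusted p = 0.203). TMEM17 was at -0.69 ± 0.43 (adjusted p = 0.463), and the other 7 lay between -0.27 and 0.13. Of 11 other transition zone genes 0 were called, with a median of 0.02. Cell surface and signalling members also gave 0 calls, among 15 tested, with a median of -0.19: TMEM47, a relative of claudins, was at -0.46 ± 0.17 (adjusted p = 0.19), and TMEM219, a receptor for IGFBP3, at 0.54 ± 0.22 (adjusted p = 0.236).

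**Figure D4:**
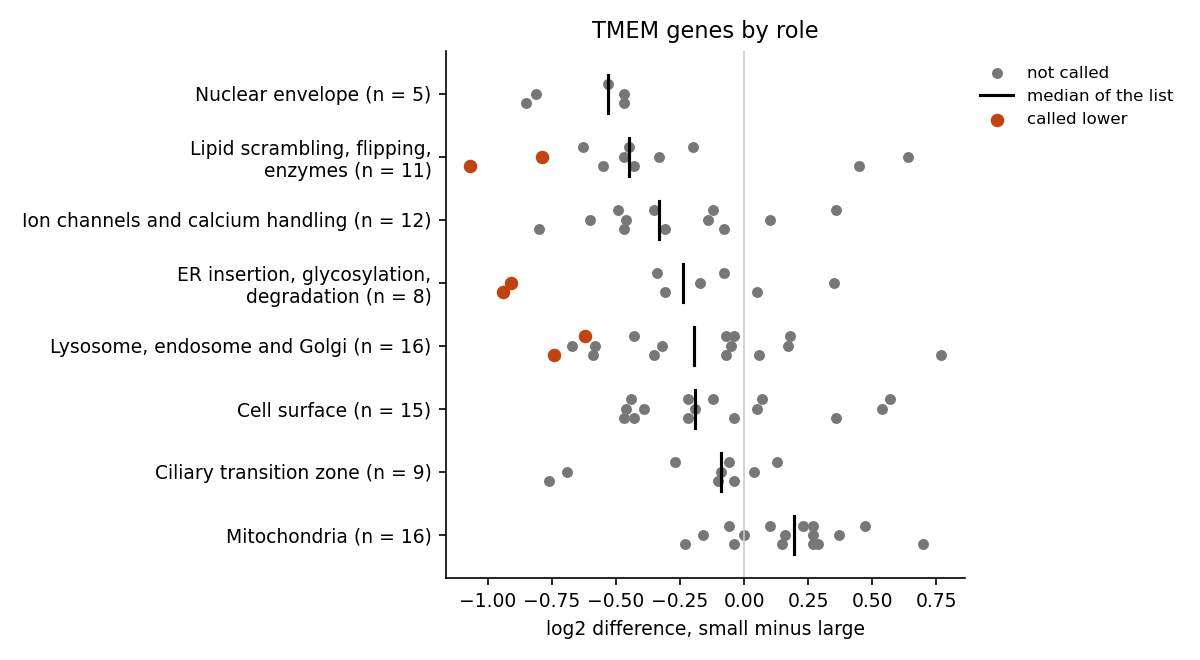
Log2 difference between small and large cells (horizontal axis) of TMEM genes in 8 lists by role (rows, ordered by median), with called genes in orange-red and a black bar at each median. The nuclear envelope (-0.53) and lipid (-0.45) lists have the lowest medians and the mitochondrial list (0.20) the highest, and the 6 called points lie in the lipid, endoplasmic reticulum and lysosome lists. TMEM120A is in both the nuclear envelope and lipid lists, and TMEM38A in both the nuclear envelope and ion channel lists.

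Of the 178 tested genes 88 were in no list by role, with a median of -0.08. TMEM248, whose role is not well known, had one of the 5 lowest differences, -0.91 ± 0.26 (adjusted p = 0.0993): it stood at 6.76, 6.20, 7.38 and 6.32 in small cells, against 7.06, 7.58, 7.75 and 7.92 in large cells, with small array 3 above large array 1. The highest difference, 0.94 ± 0.62 for TMEM200B, came from large array 1, at 2.05, where the other 7 arrays lay between 5.30 and 5.78 (adjusted p = 0.49). Among 10 tested genes not listed as protein-coding, 0 were called. The divergent transcript TMEM161B-DT starts 36 bases from TMEM161B on chromosome 5 and runs on the opposite strand. It was at 7.45, 6.87, 6.80 and 6.70 in small cells, against 6.80, 5.64, 6.70 and 6.31 in large cells (0.59 ± 0.26, adjusted p = 0.274), and TMEM161B was at 7.14, 7.47, 7.10 and 7.48 in small cells, against 7.91, 7.68, 8.07 and 8.18 in large cells (-0.66 ± 0.17, adjusted p = 0.0698). On these brightest probe sets the 2 neighbours lay on opposite sides of 0, and neither passed. The other 3 probe sets of TMEM161B-DT were at 0.38, 0.13 and -0.43, the last on the same side as TMEM161B. TMEM254-AS1 and TMEM254 also had opposite signs, 0.45 ± 0.40 and -0.59 ± 0.25, and they overlap by 529 bases. Other pairs shared a sign. TMEM108-AS1 and TMEM108 were at -0.33 ± 0.29 and -0.05 ± 0.28. TMEM44-AS1 and TMEM44 were at -0.29 ± 0.49 and -0.17 ± 0.30, and TMEM132D-AS1 and TMEM132D at -0.16 ± 0.53 and -0.31 ± 0.23. The noncoding TMEM252-DT was among the 5 highest at 0.68 ± 0.44 (adjusted p = 0.478).

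Members whose symbols share a number formed 25 families with 2 or more tested genes, 55 genes in all. On the brightest tested probe set of each gene, the members of 19 families lay on the same side of 0, below it in 16 and above it in 3. In 6 families they did not (TMEM14, TMEM74, TMEM106, TMEM126, TMEM150 and TMEM200). Of the 178 tested TMEM genes 116 lay below 0, and whether family members share a side more often than other genes was not tested. A called gene was in 6 families, in each of them 1 member, and the difference between members was not tested. TMEM161A and TMEM161B were at -0.41 ± 0.17 and -0.66 ± 0.17, and TMEM120A and TMEM120B at -0.47 ± 0.22 and -0.33 ± 0.29, without a call. Called genes spanned a median of 33.9 kb of the genome, the TMEM genes not called 17.6 kb and all genes tested 29 kb.

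**Figure D5:**
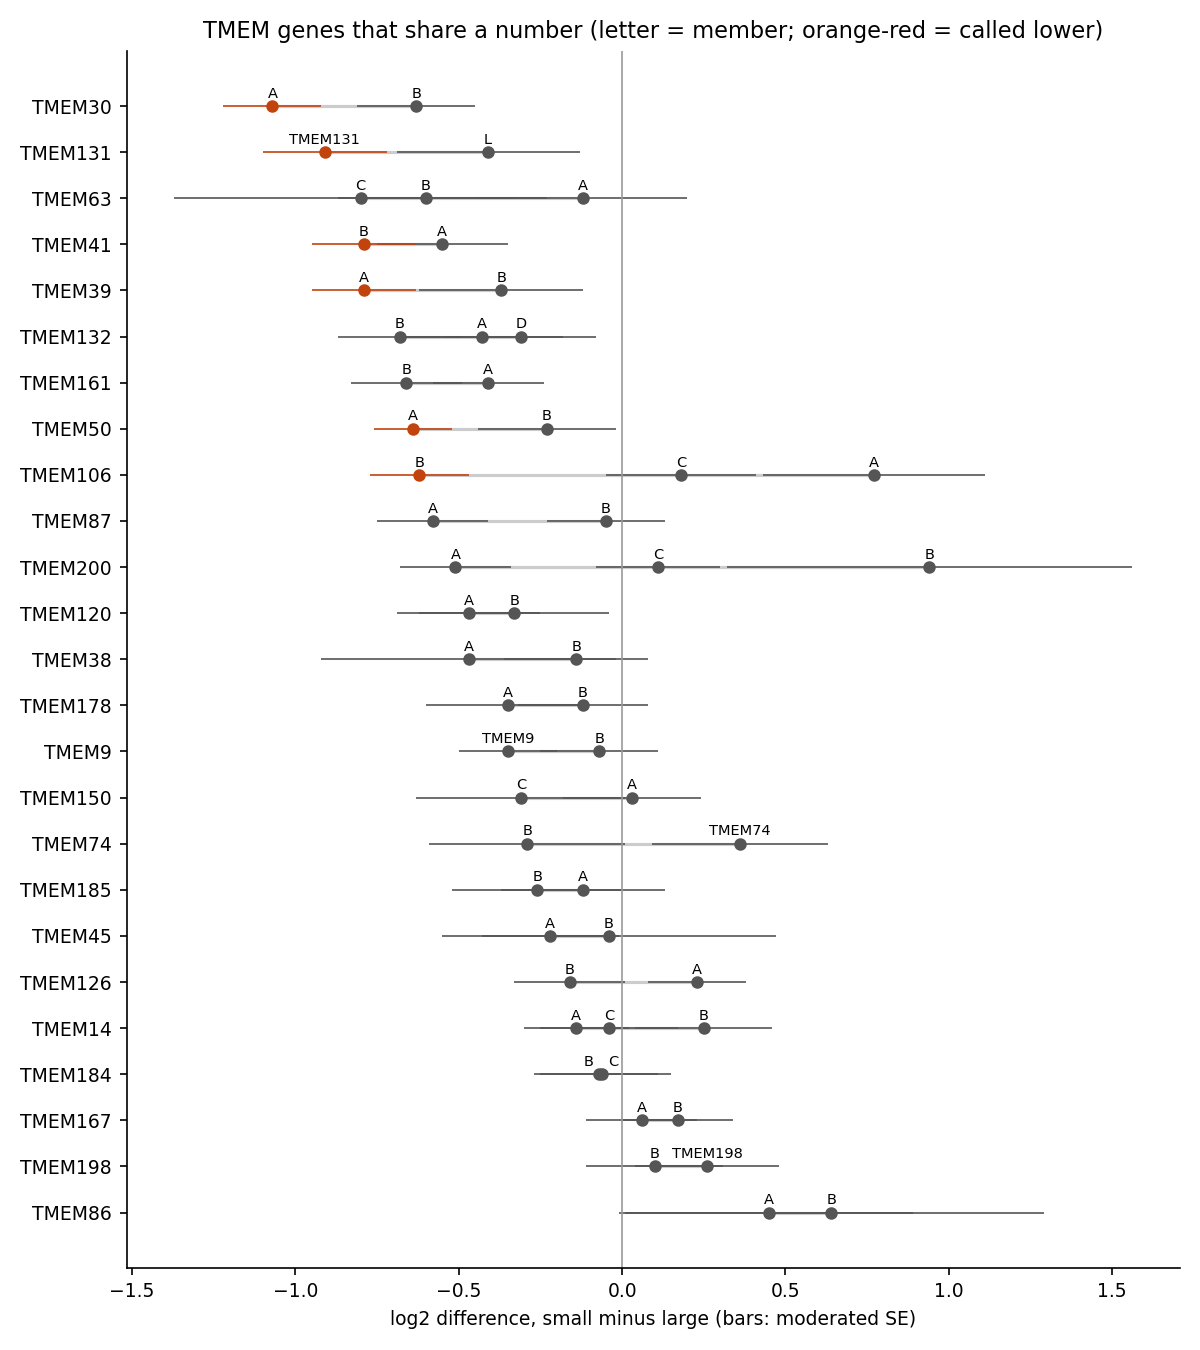
Log2 difference between small and large cells (horizontal axis, bars show the moderated SE) for the tested members of 25 TMEM families that share a number (vertical axis), each point labelled with its member's letter or full symbol and called genes in orange-red. In the TMEM30, TMEM131, TMEM41, TMEM39 and TMEM50 families the other member also lies below 0. In the TMEM106 family the called B member at -0.62 stands opposite A at 0.77, on its brighter probe set, and C at 0.18.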

How the data were processed

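The authors deposited 1 intensity on a linear scale for each probe set of 8 single-colour Affymetrix U133 Plus 2.0 arrays. Per the series design text, scans went through GeneChip Operating Software and then Rosetta Resolver (version 7.1). The background correction and scaling behind the deposited intensities, and the program that wrote them, are not given in the sources used here. Members, lists and tests were chosen with earlier results of these data known.

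The 62 control probe sets were left out. The log2 of the intensity plus 1.813, the 10th percentile of all values, was quantile normalized, because 75th percentiles differed by up to 1.33 (log2) between arrays, and the pseudocount understates the folds of dim genes. Probe sets with a mean above the 40th percentile (3.623) were tested, 32768 in all. The platform annotation, with symbols already current by gene ID, gave 41091 probe sets 1 symbol, 1801 several and 11721 none. Genes (14726) were the brightest tested probe set. The comparison used limma (version 3.58.1, R version 4.3.3; lmFit and moderation by eBayes along a variance trend), fitted over the whole table of genes and again of probe sets, two-sided, with Benjamini-Hochberg adjustment. Errors are moderated standard errors (median 0.23 for TMEM genes). The procedure was tested on simulated data.

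Named genes were all called members, from each list up to 4 called members or else the 2 with the smallest p, the 5 highest and 5 lowest differences, and tested paralogs of called members, 29 in all. Others are given for their role, their family or their groups that did not overlap, and were chosen after their values were seen, as were families, taken by shared number. Replicate numbers were not used to pair sorts, since the sources do not say what they share. Over all genes tested, deviations of equally numbered sorts correlated at 0.11, 0.13, 0.23 and 0.01. Single genes could follow the number more closely, and the main fit takes no account of this. COL3A1, for one, had 7.65, 8.55, 6.73 and 4.91 in small arrays 1 to 4 and 7.97, 8.39, 6.28 and 5.10 in large arrays. MAP2, for another, did not follow it, with 4.07, 4.39, 4.14 and 4.66 against 5.01, 3.58, 4.04 and 4.54. Besides leaving out each of 8 arrays, 17 other settings and 2 more, chosen after seeing the data, were run.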

Additional observations from a re-analysis of the deposited data

Results flagged for a closer look

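In TMEM200B, large array 1 stood apart from the other large arrays: it was at 2.05 where the next was at 5.30 and the highest at 5.63, so that the gap made up 0.907 of the range of the 4 large arrays. Small arrays lay between 5.42 and 5.78. Of 58 groups of 4 arrays looked at in this way over the 29 named genes, this was the only one. Chance gives about 1 in 20 groups, so 1 among 58 is not more than chance would give. TMEM200B was also among the named genes only through its high difference, which came from this same array.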

How the results depend on the processing

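The 29 named genes kept the sign of their difference in each alternative that tested them. Without _x_at and _s_at probe sets TMEM50A, TMEM245, TMEM165, TMEM47, TMEM200B and TMEM39B were not compared, and with a stricter brightness filter or large array 1 and small array 3 left out some dim genes were not; genes outside that set were not followed. The number called did not hold, and the share of all genes called moved with it. Without normalization between arrays 0 genes and 0 probe sets were lower and the median was -0.23 (-0.05 for all genes), after centring on medians 0 and 0, with a constant prior variance 0 and 0 (0 of all genes were called in these 3 fits), and with scaling to the 75th percentile 4 genes and 5 probe sets (1.01% of all genes lower). With the RNA quality covariate 5 genes and 6 probe sets were lower (0.917% of all genes), and without _x_at and _s_at probe sets 5 and 5 (1.4%). With the replicate number as a block 15 genes and 17 probe sets were lower and 1 gene, TMEM160, was higher (0.70, adjusted p = 0.0446), while over all genes 3.48% were lower and 240 genes higher. Added to the 9 were TMEM209 (adjusted p = 0.017), TMEM43 (0.0407), TMEM248 (0.0424), TMEM161B, TMEM132B and TMEM168. Of the 4 numbers, 3 had sorts that correlated best with their own number, a hint from the data and not from the design. Without large array 1 and small array 3 together 2 genes and 2 probe sets were higher, and 317 of all genes. With 1 array left out, genes lower ran from 1 to 10, genes higher from 0 to 1, probe sets lower from 1 to 12, probe sets higher stayed at 0 and the median ran from -0.13 to -0.08. Symbols updated by gene ID gave the same members. With the p-values of the probe-set fit, an alternative added later, 8 genes were called. The other alternatives left between 6 and 13 genes lower. The cause of these shifts was not tested. Genes dim on these arrays cannot be judged.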
